A study of Mus musculus with 20 samples.

Results

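The 9 genes described here include the subunits of the transcription factor NF-kB (Nfkb1, Nfkb2, Rel, Relb and Rela). The other 4 (Nfkbia, Nfkbiz, Nfkbid and Tnfaip3) are grouped here as inhibitors, Nfkbiz by its family and not by a measured effect. The 9 genes were taken by symbol from the 20886 genes that have a named probe on the array, each by its brightest probe. Of the 9, 8 passed the filter on dim probes and were tested among 8057 genes, and Rel did not pass. The cells were donor CD8+ effector T cells from the small intestine, the lung, the liver and the blood of mice in which lethal acute graft-versus-host disease had been induced, with 5 arrays per site and 20 in all. The levels across the 4 sites describe the pathway's own genes in bulk RNA of T cell fractions from target organs and from the circulation. Markers of other cells varied between these fractions, as given below. All groups shared the same genotypes and treatment. Recipients were female C57Bl/6 m-act OVA mice, which express ovalbumin from a CAG-OVA transgene, at 8 to 16 weeks of age. They were irradiated with 11 Gy in all and transplanted with 3000000 marrow cells together with 15000000 splenocytes. The grafted CD8+ T cells carried OT-I, a transgenic receptor for an ovalbumin peptide, and the CD45.1 allele, whereas other graft cells and the recipients carried CD45.2. On day 4 the CD45.1+ cells were recovered with magnetic beads. There was no group without disease, and every CD8+ cell of interest carried 1 receptor, which limits the groups as a model of a mixed T cell response.

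NF-kB is a family of dimeric transcription factors that sit in the cytoplasm of resting T cells, bound to inhibitor proteins. Signals from the T cell receptor or from cytokine receptors lead to the breakdown of the inhibitor encoded by Nfkbia, and dimers with the Rela or Rel subunit then enter the nucleus, which is the canonical route. The slower, non-canonical route turns the precursor encoded by Nfkb2 into a DNA-binding subunit that pairs with Relb. Several of these genes are textbook NF-kB targets themselves, so that Nfkbia and Tnfaip3, which encodes a ubiquitin-editing enzyme, close a negative feedback loop.

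Promoter sequences are shown for 3 inhibitors and 2 subunits, so that the binding motif of the factor can be seen in the genes that encode its parts. RefSeq windows of build GRCm38.p6, from 250 bases before to 50 after a transcript's start, were matched by symbol to 6 of the 9 members, with 11 windows in all. Nfkbiz, Nfkb1 and Relb had no entry. Where a gene had several windows, the one with the most matches is shown. Capitals mark matches to the kappa B consensus, searched on both strands, with overlapping matches merged. The windows are those of Nfkbia on chr12:55492598-55492897 (minus strand), Nfkbid on chr7:30422156-30422455 (plus strand), Tnfaip3 on chr10:19015361-19015660 (minus strand), Nfkb2 on chr19:46304487-46304786 (plus strand) and Rela on chr19:5637291-5637590 (plus strand).
Nfkbia: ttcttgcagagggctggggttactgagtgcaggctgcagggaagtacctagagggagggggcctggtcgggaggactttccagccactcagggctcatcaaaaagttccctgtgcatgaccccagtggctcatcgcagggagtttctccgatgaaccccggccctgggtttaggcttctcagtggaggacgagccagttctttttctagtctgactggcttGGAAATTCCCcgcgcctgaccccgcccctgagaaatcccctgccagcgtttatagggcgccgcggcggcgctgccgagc
Nfkbid: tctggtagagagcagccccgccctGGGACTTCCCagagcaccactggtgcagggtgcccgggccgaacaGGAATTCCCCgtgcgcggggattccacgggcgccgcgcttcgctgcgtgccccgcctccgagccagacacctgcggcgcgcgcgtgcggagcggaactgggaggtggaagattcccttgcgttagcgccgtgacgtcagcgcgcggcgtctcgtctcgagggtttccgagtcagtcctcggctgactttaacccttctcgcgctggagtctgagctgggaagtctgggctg
Tnfaip3: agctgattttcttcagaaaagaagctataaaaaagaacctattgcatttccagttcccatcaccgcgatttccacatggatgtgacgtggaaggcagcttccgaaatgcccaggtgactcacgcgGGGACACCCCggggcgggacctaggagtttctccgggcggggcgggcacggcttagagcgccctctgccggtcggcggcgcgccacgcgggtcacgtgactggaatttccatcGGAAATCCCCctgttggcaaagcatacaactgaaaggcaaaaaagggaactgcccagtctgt
Nfkb2: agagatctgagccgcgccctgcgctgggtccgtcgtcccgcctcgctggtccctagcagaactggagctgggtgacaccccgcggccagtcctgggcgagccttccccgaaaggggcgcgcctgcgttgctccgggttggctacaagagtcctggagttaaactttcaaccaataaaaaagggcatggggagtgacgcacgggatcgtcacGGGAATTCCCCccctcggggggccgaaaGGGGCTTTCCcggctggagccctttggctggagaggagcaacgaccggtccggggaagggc
Rela: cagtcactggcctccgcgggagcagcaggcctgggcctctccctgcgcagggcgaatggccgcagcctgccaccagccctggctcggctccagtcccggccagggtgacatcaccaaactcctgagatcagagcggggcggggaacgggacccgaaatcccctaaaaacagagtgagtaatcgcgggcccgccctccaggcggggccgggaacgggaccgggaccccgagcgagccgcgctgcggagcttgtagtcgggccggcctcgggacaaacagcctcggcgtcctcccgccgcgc
The Nfkbia window held 1 match, at bases 222 to 231 of the 300. The Nfkbid window held 3 matches in 2 stretches, and so did the Tnfaip3 window. The other 2 Nfkbid windows and the other Tnfaip3 window, not shown, held 0 matches. The Nfkb2 window shown held 4, in the stretches from 212 to 222 and from 240 to 249, and its other 2 windows held 2 and 1. The Rel window held 3 matches in 1 stretch, and the Rela window held none. At least 1 match was present in 7 of the 11 member windows, and in 8.46% of all 32851 windows in the table. Windows of a gene can overlap, and the other 2 Nfkb2 windows share a match. By gene, 5 of the 6 members had a match, against 9.55% of 27025 genes with a window. A match describes the letters only.

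Several facts of the arrays bear on the values. Arrays differed in brightness, with a 75th percentile of the signal between 823 and 2845, and 22.6% to 38.7% of the probes were well above background. All levels below are log2 processed signal minus the log2 75th percentile of the array, and levels of different probes are not set against each other. The labels do not link arrays to animals, so the p-values rest on variation among arrays that may be technical, and precision is limited by their number. A slide carried 1 array from each site, on 5 slides in all, and differences within a slide are counted below. CD8 T cell markers were well above background on every array, 15 to 17 of 17 with a probe, and hepatocyte markers were near absent at every site, with 0 to 3 of 9 above background. The array labelled liver 5 carried Paneth cell markers (4 of 6 above background, mean level 2.51), whereas the array labelled small intestine 5 did not (1 of 6, -3.27). Small intestine arrays 1 to 4 lay between 1.12 and 6.16 and liver arrays 1 to 4 between -2.56 and -2.03. These 2 libraries therefore go against their labels on this measure, and values that leaving both out moved by over 1.5 times, or across the threshold, are given with and without them.

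**Figure D1:**
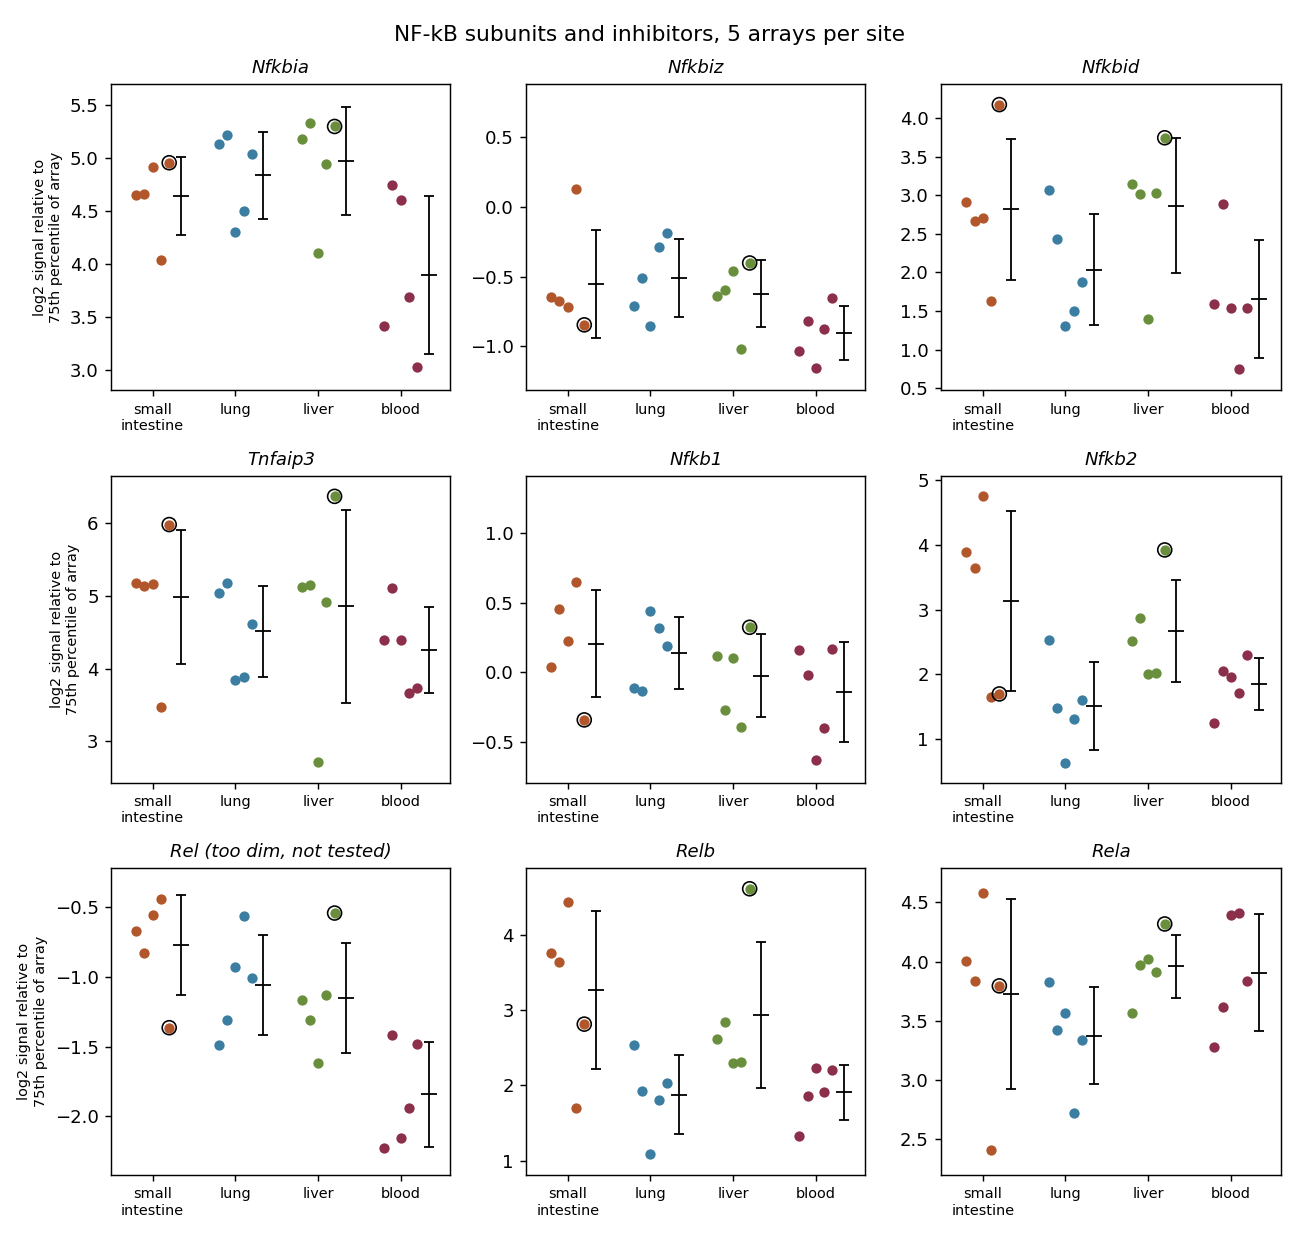
Log2 signal relative to the array's 75th percentile (y axis) of the 9 genes at the 4 sites (x axis), 1 point per array, with mean and SD beside the points (n = 5 each) and rings around the arrays labelled small intestine 5 and liver 5. For Nfkbia, 3 of 5 blood arrays lie below every organ array, and for Nfkb2 and Relb the small intestine points spread widely, with arrays 1 to 3 above all blood arrays.

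No member passed the test between any pair of sites. With limma and Benjamini-Hochberg adjustment over all 8057 genes, 0 of 8 members had an adjusted p under 0.05 for small intestine against blood, where 10.8% of all genes did. With the slide as a block it was also 0 of 8 there, against 14.4% of all genes. The same count of 0 of 8 was found for lung against blood (0.819% of all genes) and for liver against blood, where 0% of all genes passed. It was also 0 of 8 for the mean of the 3 organs against blood (0.149%), for small intestine against lung (0.149%), for small intestine against liver (0%) and for lung against liver (0.285%). The moderated F-test over the 4 sites called 0 of 8 members as well, against 0.757% of all genes, with adjusted p between 0.108 and 0.601. Its unadjusted p was under 0.05 for 3 of 8 members (Nfkbia, Nfkb2 and Relb) and for 27.9% of all genes.

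At an unadjusted limma p under 0.05, members reached the level in some comparisons. For small intestine against blood these were 4 of 8, all higher in small intestine (Nfkbia, Nfkbid, Nfkb2 and Relb), while 32.8% of all genes reached it in either direction and 4.7% in this direction. For liver against blood 3 of 8 reached it, all higher in liver (Nfkbia, Nfkbid and Relb), against 2.79% of all genes and 1.13% in this direction. For lung against blood it was 1 of 8, Nfkbia, against 33.8%. For the 3 organs against blood it was 2 of 8, Nfkbia and Nfkbid, against 25.6%. Between organs it was 2 of 8 for small intestine against lung (8.24% of all genes), 0 of 8 for small intestine against liver (22%) and 2 of 8 for lung against liver (14.8%), with Nfkb2 and Relb making up both pairs. The median difference of the 8 members from blood was 0.74 for small intestine, 0.27 for lung and 0.71 for liver on the log2 scale, and that of all genes tested was -0.36, -0.30 and 0.05. With small intestine 5 and liver 5 left out, the median of the members was 0.58 for small intestine, 0.27 for lung and 0.36 for liver, and that of all genes was -0.42, -0.30 and 0.04.

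**Figure D2:**
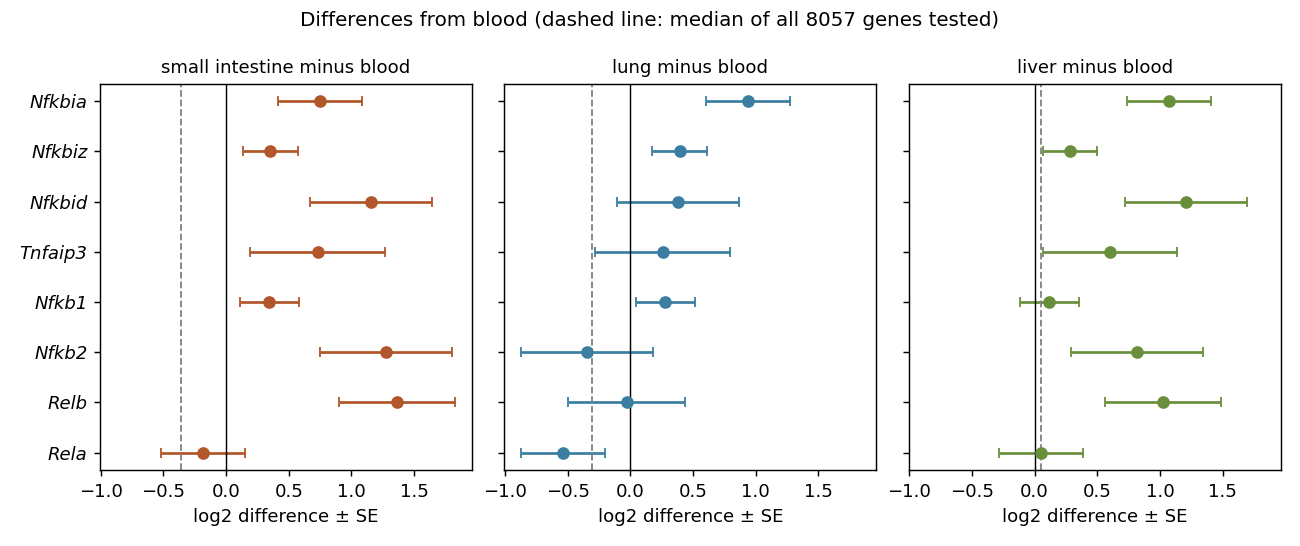
Log2 difference from blood with its standard error from the limma fit (x axis) of the 8 members tested (y axis), for small intestine, lung and liver in turn, with the median of all genes tested as a dashed line. Nfkbia lies at 0.75, 0.94 and 1.07 in the 3 panels, whereas Nfkb2 and Relb lie above 0.8 for small intestine and liver and at -0.34 and -0.03 for lung.

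Among the inhibitors, Nfkbia, which encodes the classical inhibitor that holds Rela dimers in the cytoplasm, had similar means in the 3 organs and a lower mean in blood. Its level was 4.66, 4.66, 4.91, 4.03 and 4.96 on the small intestine arrays 1 to 5, 5.13, 5.22, 4.30, 4.50 and 5.04 on the lung arrays, 5.18, 5.33, 4.10, 4.94 and 5.30 on the liver arrays and 3.42, 4.75, 4.60, 3.69 and 3.03 on the blood arrays. Blood arrays 1, 4 and 5 were below all 15 organ arrays, and blood arrays 2 and 3 lay within their range, so the groups overlapped. Liver had the highest mean (4.97 ± 0.51, SD, n = 5), then lung (4.84 ± 0.41), small intestine (4.64 ± 0.37) and blood (3.90 ± 0.75). The 3 organs exceeded blood by 0.92 ± 0.27 (SE) on the log2 scale, 1.89-fold, with a limma adjusted p of 0.112, and by more than 0 on 4 of 5 slides. With the slide as a block the adjusted p was 0.0882. The difference from blood was 0.75 ± 0.33 for small intestine (adjusted p = 0.129), 0.94 ± 0.33 for lung (adjusted p = 0.124) and 1.07 ± 0.33 for liver (adjusted p = 0.997) in the limma fit. The liver value had the smallest unadjusted p of the 3, at 0.00434 in limma, and its adjusted p was the highest, in a comparison where 2.79% of all genes had an unadjusted p under 0.05. Without both arrays that go against their labels the organ difference was 0.87 ± 0.28, with a limma adjusted p of 0.0829.

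Nfkbid encodes a nuclear inhibitor-like protein of the same family that is induced by antigen receptor signalling. Its level was 2.91, 2.66, 2.71, 1.63 and 4.17 on the small intestine arrays, 3.06, 2.43, 1.31, 1.50 and 1.88 on the lung arrays, 3.15, 3.01, 1.39, 3.03 and 3.74 on the liver arrays and 1.59, 2.88, 1.54, 0.74 and 1.54 on the blood arrays. Blood array 2 stood with the higher organ arrays, while lung arrays 3 and 4 and liver array 3 lay in the range of the other blood arrays and small intestine array 4 lay just above it. The difference from blood was 1.16 ± 0.49 (SE) for small intestine (2.23-fold, limma adjusted p = 0.109), 0.38 ± 0.49 for lung (adjusted p = 0.55) and 1.21 ± 0.49 for liver (2.31-fold, adjusted p = 0.997). Each of these was positive on at least 3 of 5 slides. The highest Nfkbid value at the small intestine and at the liver came from the 2 arrays that go against their labels, and without them the differences were 0.82 ± 0.46 and 0.99 ± 0.46.

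Tnfaip3 encodes the ubiquitin-editing enzyme that shuts off signalling upstream of the kinase complex. Its level was 5.18, 5.14, 5.16, 3.47 and 5.98 on the small intestine arrays, 5.05, 5.17, 3.84, 3.89 and 4.61 on the lung arrays, 5.13, 5.15, 2.71, 4.92 and 6.37 on the liver arrays and 4.39, 5.10, 4.39, 3.66 and 3.73 on the blood arrays. Liver held both the highest and the lowest of the 20 values, on arrays 5 and 3, and all 4 sites overlapped. The mean was 4.99 ± 0.92 in small intestine, 4.51 ± 0.62 in lung, 4.86 ± 1.33 in liver and 4.25 ± 0.59 in blood (SD, n = 5 each). The 3 organs differed from blood by 0.53 ± 0.44 (SE), with a limma adjusted p of 0.369. The highest Tnfaip3 values were on the arrays labelled liver 5 and small intestine 5. Without both, the organ difference was 0.32 ± 0.40 (limma adjusted p = 0.538), and the liver difference from blood was 0.22 ± 0.50, against 0.60 ± 0.54 with them.

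Nfkbiz, which encodes another nuclear member of the inhibitor family, was dim. Its probe was well above background on 2 small intestine, 2 lung, 5 liver and 3 blood arrays, and it was tested only because of the 5 liver arrays. Its levels ran from -0.85 to 0.13 in small intestine, from -0.85 to -0.19 in lung, from -1.02 to -0.40 in liver and from -1.15 to -0.65 in blood. The 3 organs differed from blood by 0.34 ± 0.18 (SE), with a limma adjusted p of 0.201. The organ mean exceeded blood on 5 of 5 slides, which held for 4.05% of all genes.

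Among the subunits, Nfkb2 and Relb, the partners of the non-canonical route, showed a different order of sites from Nfkbia. Both were highest in small intestine, then liver, and lung and blood were lowest. Nfkb2 had levels of 3.89, 3.64, 4.76, 1.65 and 1.69 on the small intestine arrays, 2.53, 1.48, 0.63, 1.30 and 1.59 on the lung arrays, 2.51, 2.86, 2.00, 2.03 and 3.92 on the liver arrays and 1.24, 2.05, 1.95, 1.70 and 2.29 on the blood arrays. Small intestine arrays 1 to 3 lay above every lung and blood array, and arrays 4 and 5 lay in the blood range. The mean was 3.13 ± 1.39 in small intestine, 1.51 ± 0.68 in lung, 2.66 ± 0.79 in liver and 1.85 ± 0.40 in blood (SD, n = 5 each). Nfkb2 in small intestine exceeded blood by 1.28 ± 0.53 (SE) on the log2 scale, 2.43-fold (limma adjusted p = 0.103), on 3 of 5 slides. It exceeded lung by 1.62 ± 0.53, 3.08-fold (limma adjusted p = 0.261), on 5 of 5 slides, which held for 2.57% of all genes. Lung differed from liver by -1.16 ± 0.53 (limma adjusted p = 0.321). Liver differed from blood by 0.81 ± 0.53 (limma adjusted p = 0.997) and was higher on 5 of 5 slides, as were 3.52% of all genes. With small intestine 5 and liver 5 left out, the liver difference from blood was 0.50 ± 0.48.

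Relb had levels of 3.76, 3.64, 4.43, 1.70 and 2.81 on the small intestine arrays, 2.53, 1.93, 1.09, 1.81 and 2.04 on the lung arrays, 2.62, 2.83, 2.29, 2.31 and 4.61 on the liver arrays and 1.33, 1.87, 2.23, 1.91 and 2.21 on the blood arrays. Only small intestine array 4 lay within the blood range at that site. All 5 liver arrays lay above all 5 blood arrays, the only case of no overlap among the 8 tested members in the 7 comparisons, and 0.236% of all genes did so in this direction for liver against blood. The gap was narrow, between 2.29 and 2.23, and it does not rest on the array labelled liver 5, which is the highest. The mean was 3.27 ± 1.05 in small intestine, 1.88 ± 0.52 in lung, 2.93 ± 0.96 in liver and 1.91 ± 0.37 in blood (SD, n = 5 each). Relb in small intestine exceeded blood by 1.36 ± 0.46 (SE), 2.57-fold, the smallest adjusted p of any member in this comparison (limma adjusted p = 0.0599, and 0.0583 with the slide as a block), on 4 of 5 slides. It exceeded lung by 1.39 ± 0.46 (limma adjusted p = 0.275). Liver exceeded blood by 1.03 ± 0.46 (limma adjusted p = 0.997), lung differed from liver by -1.05 ± 0.46 (adjusted p = 0.31), lower in lung on 5 of 5 slides (19.5% of all genes), and lung differed from blood by -0.03 ± 0.46 (adjusted p = 0.965), a difference whose sign turned with quantile normalization (0.25). With small intestine 5 and liver 5 left out, liver exceeded blood by 0.61 ± 0.42 and lung differed from liver by -0.64 ± 0.42. A second Relb probe, also well above background on 20 arrays, gave means of 2.89 in small intestine, 1.61 in lung, 2.54 in liver and 1.60 in blood.

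The calls for both genes depended on single arrays, and those for Relb also on the normalization and the filter on dim probes. With small intestine 5 and liver 5 both left out, Nfkb2 in small intestine exceeded blood by 1.64 ± 0.48 (SE, limma adjusted p = 0.0205) and Relb by 1.48 ± 0.42 (adjusted p = 0.0171), so that 2 of 8 members rose, where 26.3% of all genes passed. The F-test over the 4 sites then called 2 of 8 members, the same pair, and 18.8% of all genes, and without small intestine array 5 alone it called 1 (Nfkb2) and 13.2% of all genes. With both arrays left out, Nfkb2 in small intestine also exceeded lung, by 1.98 ± 0.48 (limma adjusted p = 0.0336), where 2.63% of all genes passed. Small intestine and liver differed by 1.14 ± 0.50 for Nfkb2 and 0.87 ± 0.44 for Relb there, with limma adjusted p of 0.115 and 0.15. With all arrays kept, these differences were smaller, at 0.46 ± 0.53 for Nfkb2 and 0.34 ± 0.46 for Relb (limma adjusted p = 0.604 and 0.674). Leaving out 1 array at a time, Relb passed for small intestine against blood without small intestine array 4 (1.75, adjusted p = 0.038), without small intestine array 5 (1.48, adjusted p = 0.0383) and without liver array 5 (1.36, adjusted p = 0.0306). Nfkb2 passed without small intestine array 5 (1.64, limma adjusted p = 0.0291). The share of all genes that passed was 3.24% without small intestine array 4, 25.3% without small intestine array 5 and 13.3% without liver array 5.

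Of the canonical subunits, Rela and Nfkb1 had site means that varied less than those of Nfkb2 and Relb, and Nfkb1 was dim. Rela, the main activating subunit, had a mean of 3.72 ± 0.80 in small intestine, 3.37 ± 0.41 in lung, 3.96 ± 0.27 in liver and 3.91 ± 0.50 in blood (SD, n = 5 each). Its lowest small intestine value was 2.40, on array 4, against 3.79 to 4.58 on the other 4 arrays. Lung differed from blood by -0.53 ± 0.34 (SE), with a limma adjusted p of 0.236, and was lower on 4 of 5 slides.

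Nfkb1, which encodes the precursor of the other canonical subunit, ran from -0.34 to 0.65 in small intestine, from -0.14 to 0.44 in lung, from -0.39 to 0.32 in liver and from -0.63 to 0.17 in blood. Its 3 organs differed from blood by 0.25 ± 0.19 (SE, limma adjusted p = 0.343). The probe was well above background on 18 of 20 arrays, and a second Nfkb1 probe on 3. Rel, a subunit found mainly in cells of the blood lineages, was well above background on 3 small intestine, 0 lung, 3 liver and 0 blood arrays and was not tested. Its measured mean was -0.77 in small intestine, -1.06 in lung, -1.15 in liver and -1.84 in blood. Rel levels ran from -1.36 to -0.44 in small intestine and from -2.23 to -1.41 in blood, with no overlap. The gap was narrow, and 8.3% of all genes tested had no overlap there in either direction. The Rel values in blood and 2 of the 5 in small intestine were not well above background, and no fold is given. The levels of the dim members moved with the brightness of the array, with Pearson correlations to its log2 75th percentile of -0.52 for Nfkbiz, -0.73 for Nfkb1 and -0.62 for Rel over 20 arrays. The part of brightness in these levels was not tested.

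The closest correlations among the members were those of 2 pairs. Nfkb2 and Relb had a Pearson correlation of 0.95 over the 20 arrays, 0.92 for deviations from the site means and 0.98 with small intestine 5 and liver 5 left out. Nfkbid and Tnfaip3 had 0.89 over the 20 arrays and 0.91 for deviations from the site means. Nfkbia followed these inhibitors, with 0.73 to Nfkbid and 0.72 to Tnfaip3, more than it followed Nfkb2 (0.35) or Relb (0.46). The pairs were not separate. Relb had a correlation of 0.63 to Nfkbid and 0.63 to Tnfaip3, and Nfkb2 had 0.51 to each of them. Rela had correlations of 0.57 to Nfkb2 and 0.58 to Relb. Nfkbiz had correlations of 0.10 to Nfkbia, -0.07 to Nfkbid and -0.18 to Tnfaip3. All points share the array, its scaling and its amplification, and the values are descriptions. On some arrays the pairs differed and on others they moved together. Small intestine array 5 had the highest Nfkbid value of all 20 (4.17) and the second highest Tnfaip3 value (5.98), yet Nfkb2 there was 1.69, in the blood range. Small intestine array 3 had the highest Nfkb2 value of all 20 (4.76) with Nfkbid and Tnfaip3 close to those of arrays 1 and 2. Liver array 3 was lowest of its site for Nfkbia, Nfkbid and Tnfaip3, at 4.10, 1.39 and 2.71, and lay beside liver array 4 for Nfkb2 and Relb. In contrast, liver array 5 was highest of its site for Nfkb2, Relb, Nfkbid and Tnfaip3 alike, and small intestine array 4 was lowest of its site for these 4 and for Nfkbia.

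**Figure D3:**
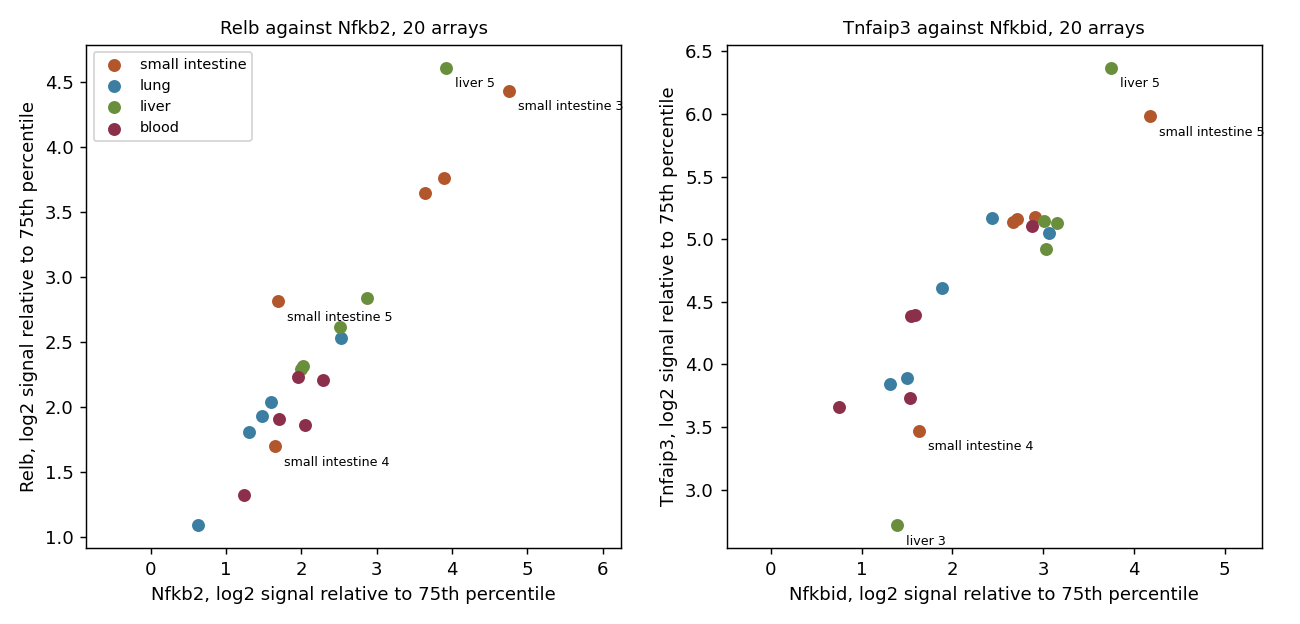
Relb against Nfkb2 (left) and Tnfaip3 against Nfkbid (right), both axes in log2 signal relative to the array's 75th percentile, 1 point per array and coloured by site. The points lie along a line in both panels (Pearson correlations 0.95 and 0.89), and the array labelled small intestine 5 is near the top on the right and in the middle on the left.

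Markers of other cells also varied between arrays, and in bulk RNA fewer cells of a type and less RNA per cell cannot be told apart. Small intestine arrays 1 and 2, with high Nfkb2 and Relb, had 11 of 13 monocyte and macrophage markers above background, at mean levels of 2.57 and 3.02. Small intestine array 3, with the highest Nfkb2 of all, had 3 of 13 and a mean level of -1.67, within the range of the blood arrays (-2.68 to -1.37, 1 to 2 of 13). Small intestine array 4, with Nfkb2 in the blood range, had all 6 Paneth cell markers above background at a mean of 6.16. It also had the lowest CD8 T cell marker level of the 20 arrays (3.18, against 5.10 on array 3). Small intestine arrays 1 and 2 also had all 6 Paneth cell markers above background (means 4.19 and 5.32), with CD8 T cell marker levels of 4.09 and 3.45. Small intestine array 5, also with Nfkb2 in the blood range, had 1 of 6 (-3.27) and a CD8 T cell marker level of 4.71. B and plasma cell markers averaged 0.02 to 0.64 on small intestine arrays 1 to 4 and 0.34 on liver array 5, against -1.75 to -0.56 in blood. Small intestinal epithelium markers averaged -1.04, 0.68, -1.44, 1.55 and -2.98 on small intestine arrays 1 to 5. They averaged -0.29 on liver array 5, against -2.56 to -2.19 on liver arrays 1 to 4 and -2.89 to -1.53 in blood. In the lung, 9 or 10 of 11 alveolar macrophage markers were above background on arrays 1, 2, 4 and 5 and 0 of 11 on array 3, and array 3 had the lowest Nfkb2 and Relb values of the 20. The part of these cells in the members' levels on those arrays was not tested.

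**Figure D4:**
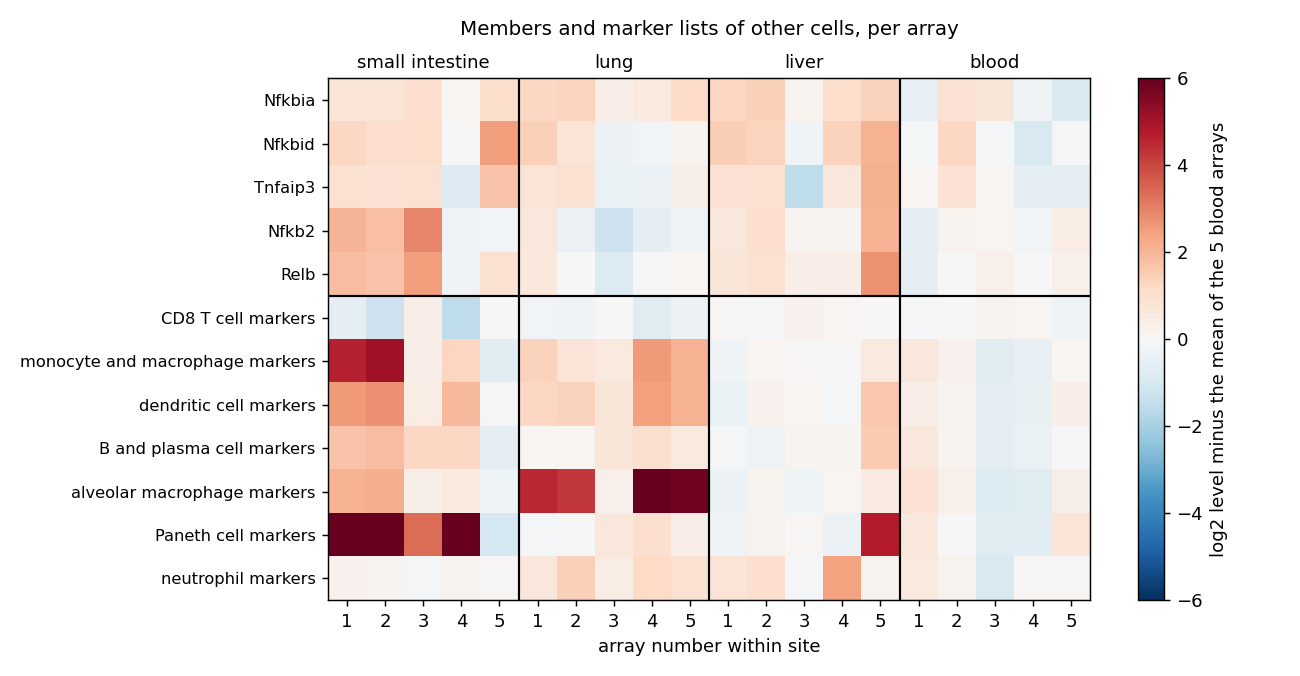
Log2 level of 5 members (upper rows) and mean log2 level of 7 marker lists (lower rows) on each array (columns, by site), shown as the difference from the mean of the 5 blood arrays, with colours ending at 6 on either side. Small intestine array 3 is dark for Nfkb2 and Relb and pale for monocyte and macrophage markers, and the array labelled liver 5 is dark for Paneth cell markers.

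The rest of the pathway was described with 3 lists. Of 20 other inhibitors, 17 were tested, and 1 rose and 1 fell in small intestine against blood, 11.8% of the list, against 10.8% of all genes. Nfkbie, which encodes a further cytoplasmic inhibitor, had levels of 3.32, 2.95, 2.58, 0.55 and 2.53 on the small intestine arrays and -0.56, 0.49, 0.68, 0.14 and 0.53 on the blood arrays, with 1 small intestine array in the blood range. Nfkbie rose by 2.13 ± 0.54 (SE), 4.38-fold, with a limma adjusted p of 0.0233, on 5 of 5 slides. It also differed from blood in liver by 1.88 ± 0.54 (limma adjusted p = 0.997), and its lung mean of 0.20 was close to the blood mean of 0.26. Cyld, a deubiquitinase that restrains the kinase complex, had levels from -1.71 to 0.96 in small intestine and from 1.04 to 2.32 in blood, with no overlap (8.3% of all genes had none in either direction). Cyld fell by 2.07 ± 0.40 on the log2 scale (limma adjusted p = 0.0155), on 5 of 5 slides. Its probe was well above background on 3 of 5 small intestine arrays, so the size of the fall rests partly on dim values. In the other 6 comparisons 0 of 17 other inhibitors passed limma's test at adjusted p under 0.05. An unadjusted p under 0.05 was reached by 2 for lung against blood (33.8% of all genes) and 1 for liver against blood (2.79%). It was reached by 4 for the 3 organs against blood (25.6%) and 5 for small intestine against lung (8.24%). The counts were 6 for small intestine against liver (22%) and 5 for lung against liver (14.8%). With small intestine 5 and liver 5 left out, 6 of 17 passed for small intestine against blood (26.3% of all genes), 4 of 17 for small intestine against liver (16.3%), 2 of 17 for small intestine against lung (2.63%) and 1 of 17 for the 3 organs against blood (2.12%). Cyld was among those called in each of these 4 comparisons, with limma adjusted p of 0.00442 for small intestine against liver and 0.0363 for the 3 organs against blood. Nlrc5 then had an adjusted p of 0.01 for small intestine against liver and Nfkbie one of 0.0408 for small intestine against lung. The median difference of this list in small intestine against blood was -0.70, against -0.36 for all genes.

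Of 37 upstream genes, from receptors to kinases, 26 were tested, and 0 rose and 3 fell in small intestine against blood, 11.5% of the list, against 10.8% of all genes. Myd88, the adaptor of Toll-like and interleukin-1 family receptors, fell by 1.32 ± 0.27 (SE) on the log2 scale (limma adjusted p = 0.017). Tradd, the adaptor of the tumour necrosis factor receptor, fell by 1.30 ± 0.36 (limma adjusted p = 0.0302). Il18r1, a subunit of the interleukin-18 receptor, fell by 2.22 ± 0.64 (limma adjusted p = 0.035). The Il18r1 probe was well above background on 3 of 5 small intestine arrays, so the size of its fall rests partly on dim values. In the other 6 comparisons 0 of 26 passed. At an unadjusted limma p under 0.05 there were 5 for lung against blood (33.8% of all genes) and 2 for liver against blood (2.79%). There were 7 for the 3 organs against blood (25.6%) and 6 for small intestine against lung (8.24%). The counts were 7 for small intestine against liver (22%) and 6 for lung against liver (14.8%). In the fit without the 2 arrays that go against their labels, 8 of 26 passed for small intestine against blood (26.3% of all genes). It was 6 of 26 for small intestine against liver (16.3% of all genes). It was 2 of 26 for small intestine against lung (2.63%) and 1 of 26 for the 3 organs against blood (2.12%). CD8 T cell markers averaged 3.18 to 5.10 on the small intestine arrays and 4.50 to 4.90 on the blood arrays, and their part in these decreases was not tested. Tnfrsf4, which encodes the costimulatory receptor OX40, was the upstream gene with the largest difference between small intestine and lung, at 2.24 ± 0.55 (limma adjusted p = 0.0996, and 0.0385 with small intestine 5 and liver 5 left out). Its highest values were 7.25 on small intestine array 3 and 6.73 on liver array 5, the arrays that also had the highest Nfkb2 and Relb values of their sites.

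Of 42 target genes, 29 were tested, and 5 rose and 1 fell in small intestine against blood, 20.7% of the list, against 10.8% of all genes. Their median difference from blood was 0.47 in small intestine, 0.50 in lung and 0.42 in liver, against -0.36, -0.30 and 0.05 for all genes. Cd83, a surface protein of activated lymphocytes and dendritic cells, averaged 4.94 in small intestine and 0.79 in blood and rose by 4.16 ± 0.73 (SE, limma adjusted p = 0.0127). Cxcl10, a chemokine that draws CXCR3+ T cells, rose by 4.11 ± 0.79 (limma adjusted p = 0.0157), with 1 of 5 blood arrays well above background. Gadd45b, a stress response gene, rose by 2.22 ± 0.59 (limma adjusted p = 0.0283), and Nfkbie, given above, is also on this list. The other 2, named after their values were seen, were Ccr7, which rose, and Irf4, which fell. For the 3 organs against blood, Cd83 and Cxcl10 rose by 3.26 ± 0.60 and 3.28 ± 0.65 (limma adjusted p = 0.0339 and 0.0428), 2 of 29 targets against 0.149% of all genes. Those calls held in 20 of 31 alternatives for Cd83 and in 12 of 30 for Cxcl10, and with scaling on the probes above background on all arrays the limma adjusted p was 0.0774 for Cd83 and 0.126 for Cxcl10. In the other 5 comparisons 0 of 29 targets passed. At an unadjusted limma p under 0.05 there were 6 for lung against blood (33.8% of all genes) and 7 for liver against blood (2.79%). Between organs there were 6 for small intestine against lung (8.24%), 2 for small intestine against liver (22%) and 6 for lung against liver (14.8%). With the slide as a block, Cd83 and Cxcl10 passed for liver against blood as well (limma adjusted p = 0.0041 for both, 0.0372% of all genes), where they were 0.268 and 0.62 without the block. Cxcl10 also passed for lung against blood with the block (limma adjusted p = 0.0103, 1.41% of all genes, against 0.117 without it). Each of these 3 differences was positive on 5 of 5 slides. Leaving out small intestine 5 and liver 5, 10 of 29 targets passed for small intestine against blood (34.5%, against 26.3% of all genes). For small intestine against liver 3 of 29 passed (10.3%, against 16.3% of all genes). It was 2 of 29 (6.9%) for small intestine against lung (2.63% of all genes) and for the 3 organs against blood (2.12%). Dendritic cell markers averaged -0.98 to 1.87 on the small intestine arrays and -1.40 to -0.46 on the blood arrays. Cxcl10 was 3.75 and 4.02 on small intestine arrays 1 and 2, where monocyte and macrophage markers averaged 2.57 and 3.02. On small intestine arrays 3 to 5 those markers averaged -2.67 to -0.77 and Cxcl10 was 1.36 to 1.56. Blood values of Cxcl10 ran from -3.38 to 0.06. The part of these cells was not tested. The calls for small intestine against blood held in 31 of 32 alternatives for Cd83, in 30 of 31 for Cxcl10 and in 30 of 31 for Cyld. The exception for all 3 was the fit without small intestine array 2, in which limma called 0% of all genes. The difference there was 3.88 ± 0.78 for Cd83, 3.71 ± 0.82 for Cxcl10 and -1.75 ± 0.37 for Cyld, each with an adjusted p of 0.0576. Calls of other named genes for small intestine against blood held in fewer alternatives. The number was 29 of 31 for Myd88, 26 of 31 for Nfkbie, 24 of 32 for Gadd45b, 22 of 32 for Tradd and 18 of 31 for Il18r1.

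**Figure D5:**
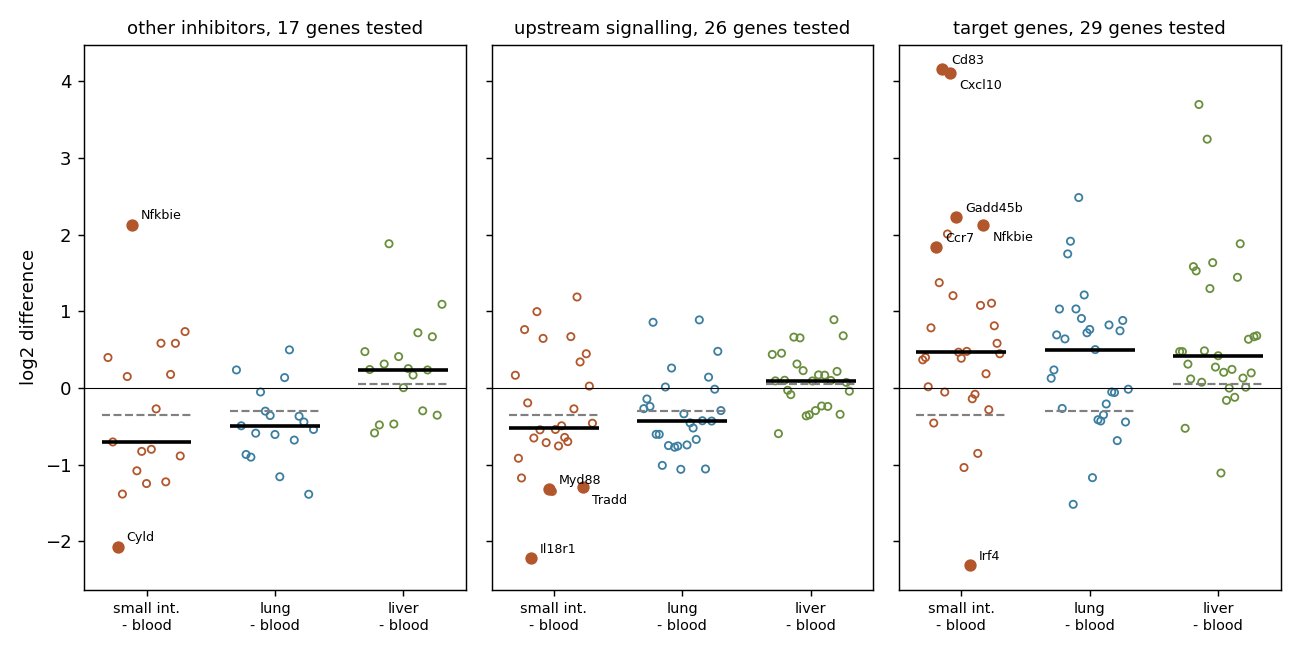
Log2 difference from blood (y axis) of each tested gene of 3 lists in small intestine, lung and liver, with filled, named points for adjusted p under 0.05, the list median as a solid bar and the median of all genes tested as a dashed bar. In this fit, without the slide as a block, filled points occur in small intestine only, and the medians of the target genes (0.47, 0.50 and 0.42) lie above the dashed bars.

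Among the 8049 other genes tested, those whose levels most resembled the mean standardised level of the 4 inhibitors over the 20 arrays were Nr4a1 (Pearson correlation 0.86), Cd83 (0.86), Cish (0.84), Cxcl10 (0.84) and Pmaip1 (0.83). Nr4a1, an immediate early gene of T cell receptor signalling, averaged 4.67 in small intestine, 4.83 in lung, 4.87 in liver and 3.29 in blood, the same order of sites as Nfkbia. Those most like the 5 subunits were Coq8a (0.87), Hspa5 (0.86), Ninj1 (0.85), Jchain (0.84) and Tent5a (0.83). Ninj1 averaged 2.68 in small intestine, 1.06 in lung, 2.28 in liver and 1.15 in blood, small intestine and liver above lung and blood as for Nfkb2. Jchain is a plasma cell gene on the B and plasma cell list, with means of 2.77 in small intestine, -2.46 in lung, -1.51 in liver and -2.92 in blood. The averaged sets were not uniform. The inhibitor mean includes the dim Nfkbiz, and the subunit mean includes the dim Nfkb1 and Rel. Rela had correlations of -0.52 to Nfkb1 and -0.27 to Rel. The genes named here are the top of a ranking over 20 arrays and carry no test.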

How the data were processed

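Total RNA of magnetically selected CD45.1+ T cells was amplified in 2 linear rounds, labelled with Cy3 and measured on 1-colour Agilent arrays, per the labels' protocols. The deposited scanner files hold background-subtracted signal intensity on a linear scale, extracted, per the file headers, by Feature Extraction 11.0.1.1. The submitters' processing notes give its version as 10.7 and also name Partek. The authors' deposited value table is log2 and equals quantile-normalized log2 intensity (median absolute difference 6.31e-05, column median 8.05). It served as an alternative.

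From the intensity, log2 signal minus each array's 75th percentile was taken over 43020 spots that were not controls. Spots of a probe were averaged, 24 spots with the non-uniform flag were dropped, and 1 spot, of no member, was saturated. Probes were named through RefSeq accessions (27508 of 39429 probes). The filter kept a gene if, at 1 site or more, 4 or 5 arrays had its brightest probe well above background. The test was limma 3.58.1 (R 4.3.3) on 20 arrays with 16 residual degrees of freedom, two-sided, with Benjamini-Hochberg adjustment within each of 7 contrasts and a threshold of 0.05. The procedure was tested on simulated data. In 18 of 30 same-number pairs of arrays the deviations from the site means correlated above 0.1 (range -0.37 to 0.56). Arrays of different number were not compared in this way, so whether the numbers pair the samples was not tested. The slide, which carries the same number, was used as a block beside the main values. Alternatives were other scalings, quantile normalization, normexp, other filters, probe means, pairwise fits, a variance trend and omitted arrays.

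The members, the lists and the tests were chosen with earlier results of these data known. All 9 members are named in full. From each pathway list up to 4 called genes per contrast with the smallest adjusted p are named, or, without calls, genes among the 2 largest differences. The 5 genes most like each set of members are also named. Of the marker lists, those of lung epithelium and endothelial cells are not given, and neutrophil markers are given in a figure only. Figures were drawn with matplotlib 3.10.9.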

Additional observations from a re-analysis of the deposited data

Results flagged for a closer look

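Of the 36 groups of 5 arrays (9 members at 4 sites), 2 held a value that stood far apart from the other 4 by Dixon's test, where chance alone gives about 1 in 20. Nfkbiz had a level of 0.125 on small intestine array 4, against -0.846 to -0.646 on the other small intestine arrays, and the probe is near background at that site. Relb had a level of 4.608 on the array labelled liver 5, against 2.293 to 2.835 on the other liver arrays. The same array carried Paneth cell markers at a mean of 2.51, against -2.56 to -2.03 on the other liver arrays. Without it and without the array labelled small intestine 5, Relb in liver exceeded blood by 0.61 ± 0.42 (SE).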

How the results depend on the processing

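All comparisons were repeated under 32 alternatives, 20 of which left out 1 array. For small intestine against blood the number of members called was 1 with quantile normalization (Relb, 1.69, limma adjusted p = 0.0289), 1 with the deposited value table (Relb), 1 with only the genes above background on all arrays (Relb) and 2 with small intestine 5 and liver 5 both left out, and it ran from 0 to 2 with 1 array left out. For small intestine against lung it was 1 and for the F-test 2 without those 2 arrays, and the F-test gave 0 to 1 with 1 array left out. The cause was not tested. Nfkb2 was called only in fits without small intestine array 5. In the other comparisons 0 members were called under any alternative run, by limma with Benjamini-Hochberg adjustment. With the replicate block, which is the slide, 0 of 8 members were called in any comparison, so the replicate block changed no call of a member. For small intestine against blood it gave 3 of 17 other inhibitors, 4 of 26 upstream genes and 7 of 29 targets, against 2, 3 and 6 without it (14.4% of all genes, against 10.8%). With the block, limma's adjusted p for Relb in small intestine against blood was 0.0583.

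Of 56 differences (8 members in 7 comparisons), 18 turned sign under at least 1 alternative, none of them larger than 0.34 in size. Among the 26 given as reported differences 1 turned. Relb in lung against blood was 0.25 with quantile normalization and 0.25 with the deposited value table, and ran from -0.19 to 0.17 with 1 array left out, against -0.03 as reported. Scaling on the probes above background on all arrays moved the median of all genes for small intestine against lung to 0.08, against -0.15, and for liver against blood to -0.13, against 0.05. Under that scaling limma's adjusted p for small intestine against blood was 0.0693 for Nfkbie, 0.0709 for Gadd45b, 0.0709 for Myd88, 0.0875 for Tradd and 0.0887 for Il18r1, while Cyld, Cd83 and Cxcl10 kept an adjusted p under 0.05. Across alternatives the share of all genes called for small intestine against blood ran from 0% to 26.3%. Among the members, signal near background limits Nfkbiz, Nfkb1 and Rel. It also limits the size of the differences between small intestine and blood for Cyld, Il18r1 and Cxcl10.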
